A study of Homo sapiens with 3 samples.

Results

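The miRNAs held by Argonaute2 (Ago2) in Hep G2 cells transfected with a miR-195 mimic were set beside those held in non-treated Hep G2 cells. Both arrays were chosen by their titles, and they were 2 of the 3 arrays of the series. The miRNAs described were all 851 human names on the array, of which 173 were well above background on at least 1 of the 2 arrays, and 147 endogenous miRNAs were well above background on both. Endogenous means every human name except both strands of miR-195 and of miR-497, the miRNAs given as mimics in the series. Hep G2 is a human liver cancer line. In the miR-195 group the cells received 5 nM of a double-stranded miCENTURY OC miNatural mimic (OX in the study's methods) with Lipofectamine RNAiMAX and were lysed 24 hours later for immunoprecipitation of Ago2. The non-treated (NT) group went through the same immunoprecipitation without transfection, so that the mimic and the transfection itself cannot be told apart. Each precipitate gave 10 ng of RNA for Cy3 labelling and 1 single-colour Agilent miRNA array. There was 1 array per group, so no difference here has a replicate check and no test between groups was possible. The SD given beside a value is the spread between repeated spots of the same probes on 1 array, which covers technical error within that array only.

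Ago2 is the protein of the RNA-induced silencing complex that holds a small RNA and uses it to find target mRNAs. A miRNA is cut from a hairpin as a duplex, and as a rule one strand, the guide, is kept in Ago2 while the other strand, the passenger (marked by an asterisk), is discarded. Targets are found mainly through the seed, bases 2 to 8 of the guide. miR-195 belongs to the miR-15/miR-16 family, whose members share a seed and are known to repress cyclins and cyclin-dependent kinases of the G1 phase.

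In the GRCh38.p14 annotation MIR195 lies at chr17:7017615-7017701 on the minus strand, beside MIR497 at chr17:7017911-7018022, and both are inside the long non-coding host gene MIR497HG at chr17:7015818-7019654. The RefSeq hairpin is shown with the parts that become the guide (bases 15 to 35 of 87) and the passenger (bases 53 to 74) in capitals, because both strands were measured. The labels do not give the sequence of the synthetic duplex, so the natural strands stand in for it.
MIR195 hairpin: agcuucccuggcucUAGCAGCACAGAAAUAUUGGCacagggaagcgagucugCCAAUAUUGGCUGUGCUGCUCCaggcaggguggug

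The mature sequences that follow are those of both strands of miR-195, of the guide's relatives on the array and of its nearest neighbour on the passenger side, with the seed in capitals. They show which endogenous miRNAs would read the same target sites as the mimic, and which are close enough in sequence to be weighed as neighbours of it.
miR-195: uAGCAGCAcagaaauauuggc
miR-16: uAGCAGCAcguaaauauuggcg
miR-15a: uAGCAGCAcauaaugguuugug
miR-15b: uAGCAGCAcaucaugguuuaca
miR-497: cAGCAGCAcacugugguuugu
miR-424: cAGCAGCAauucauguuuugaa
miR-503: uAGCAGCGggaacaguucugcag
miR-646: aAGCAGCUgccucugaggc
miR-103: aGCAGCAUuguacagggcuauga
miR-107: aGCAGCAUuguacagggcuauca
miR-195*: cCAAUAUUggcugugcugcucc
miR-16-2*: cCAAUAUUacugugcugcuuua
The names miR-15a, miR-15b, miR-16, miR-195, miR-424 and miR-497, 6 in all, carry the same seed AGCAGCA. miR-16 is 3 single-base edits away from the miR-195 guide over its whole length, miR-15a is 7 away, and miR-15b, miR-148b and miR-29b are 8 away. In miR-103 and miR-107 the shared bases are moved by a single position. Those 2 differ from each other by a single letter near the end, so their probes may share signal, and the same holds for other near-identical miRNAs.

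The 2 arrays were alike in their spot measures, but 168 human names were well above background on the NT array and 153 on the miR-195 array. Each held 15024 non-control spots, of which 14.9% on the NT array and 13.5% on the miR-195 array were well above background, and no spot was saturated. The median spot SD of a detected probe was 9.40% of its signal on the NT array and 8.19% on the miR-195 array. Signals are in the background-subtracted units of the scanner software, summed over the probes of a miRNA. Probes differ in how brightly they respond, so a share or a rank here is one of signal and not of molecules.

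Both strands of miR-195 went from the edge of detection, for the guide, or from background, for the passenger, to among the brightest signals of the array. The guide gave 45.3 ± 4.95 units (spot SD) on the NT array, where 1 of its 2 probes was well above background, and 38522 ± 2126 units on the miR-195 array. Spots of its first probe lay between 29.8 and 39.7 units without the mimic and between 20399 and 23531 with it, and spots of its second probe between 6.0 and 15.7 units and between 13285 and 18023. No spot of either guide probe overlapped between the arrays. On the log2 scale, after each array was divided by its 75th percentile, the guide was 9.82 higher (spot SD 0.18).

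The passenger strand was read by 4 probes. None was well above background on the NT array, where their sum was 4.38 ± 2.79 units. On the miR-195 array all 4 were, and their sum was 10321 ± 221 units. The 4 probes differed 25.9-fold among themselves, from a mean of 222 units for the dimmest to 796, 3559 and 5744 units for the others, while the 2 guide probes differed 1.35-fold with means of 22139 and 16383 units. Against the lowest detected signal of the NT array the passenger was at least 9.94 higher on the log2 scale. The passenger's signal was 26.8% of the guide's (spot SD 1.59 percentage points). On the miR-497 array, the same ratio for miR-497* over miR-497 was 3.44%, from 272 and 7903 units. These ratios come from different probes of unlike brightness and were not compared further.

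**Figure D1:**
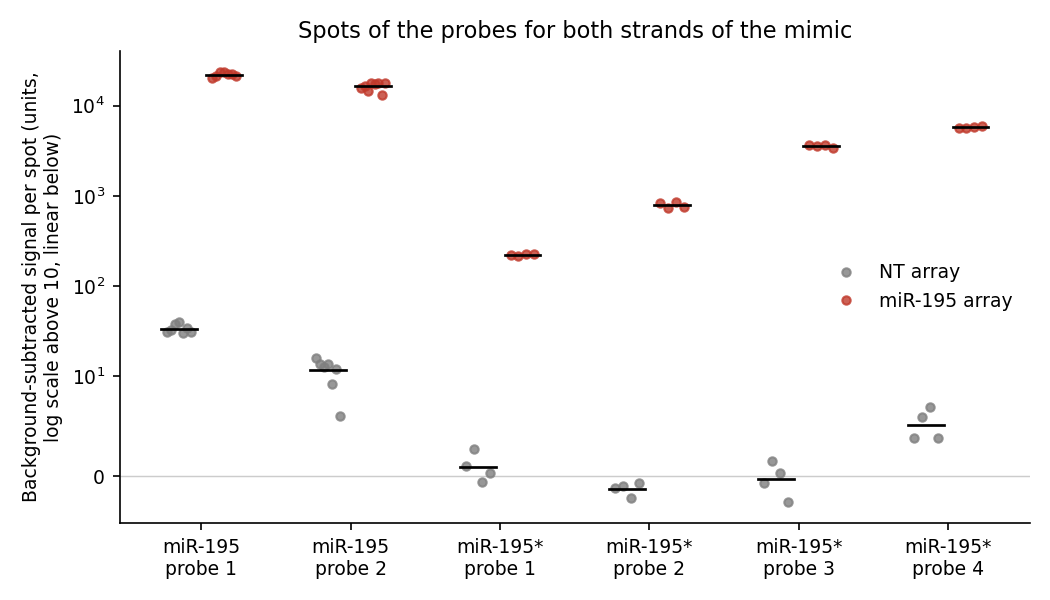
Signal of every used spot of the 2 probes for miR-195 and the 4 probes for miR-195* on the NT array (grey) and the miR-195 array (red), on an axis that is logarithmic above 10 units and linear below, with black bars at the means. Spots of each probe lie far apart on the 2 arrays, from under 40 units to over 200, and the passenger probes spread over a 25.9-fold range with the mimic.

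With the mimic, its 2 strands together held 18.6% of all human miRNA signal in the Ago2 precipitate. The guide alone held 14.6% (spot SD 0.72 percentage points) and stood second of 851 names, behind miR-21. The passenger held 3.92% (spot SD 0.10 percentage points) and stood at rank 7. Without the mimic the guide held 0.0190% at rank 133, with 1 of its 2 probes above background. The passenger was not above background there, so its signal of 0.0018% is no measured share and its place has no meaning. The guide's signal was 71.8% of that of miR-21, a miRNA abundant in many tumour lines. On the miR-497 array the guide of that mimic also stood second, with 7.42% of the signal, both of its strands held 7.67%, and miR-195 held 0.0308%. These values stand side by side with no test, since each rests on 1 array.

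The total human signal was 237956 units on the NT array and 263272 on the miR-195 array, 10.6% more. The strands of the mimic accounted for 48844 units of the latter. Endogenous signal was 237903 units without the mimic and 214394 with it, a value 9.88% lower. Most of that gap was a single miRNA. miR-21 gave 71328 ± 5548 units on the NT array and 53636 ± 2735 on the miR-195 array, and this difference of 17693 units was 75.3% of the endogenous gap. Without miR-21 the endogenous totals were 166574 and 160758 units, 3.49% lower with the mimic. Equal amounts of RNA were labelled, and on the miR-195 array the strands of the mimic were part of that amount. The signals therefore give no amount per Ago2 complex or per cell, and the cause of the gap was not tested.

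**Figure D2:**
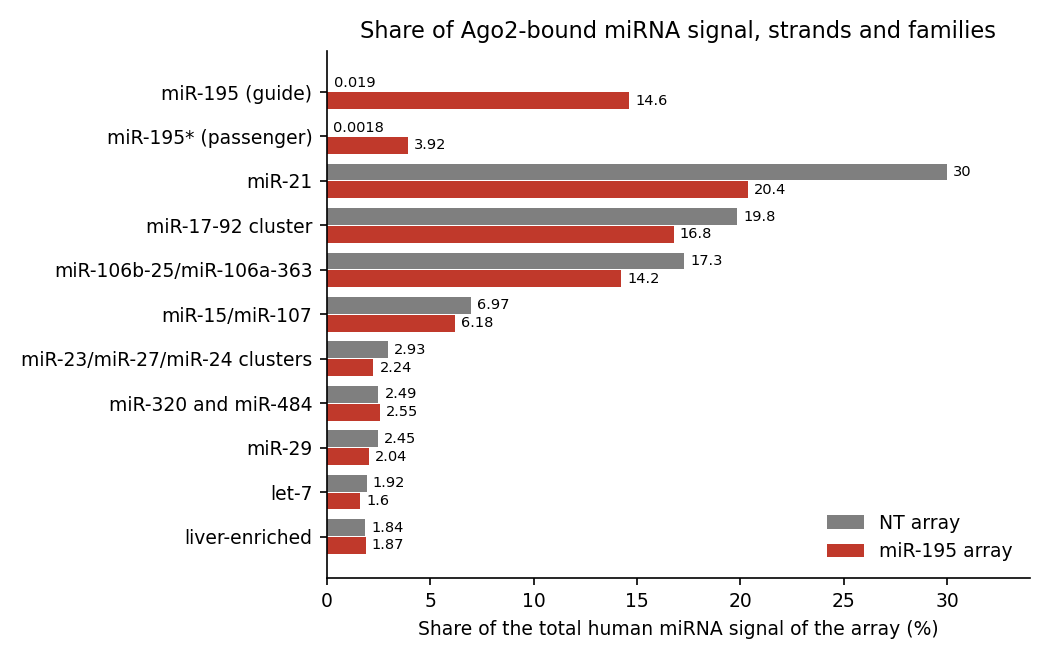
Share of the total human miRNA signal of each array, in percent, held by the guide and the passenger of miR-195 and by the larger endogenous families, for the NT array (grey bars) and the miR-195 array (red bars). The guide takes 14.6% and the passenger 3.92% with the mimic, while miR-21 goes from 30.0% to 20.4% of the total and the miR-17-92 cluster from 19.8% to 16.8%.

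Among the names that share the seed of miR-195, the guide was the main source of signal with the mimic and a minor one without it. The 6 names together gave 11142 units on the NT array, or 4.68% of the human total, and with the mimic 49584 units, or 18.8% of the total, a ratio of 4.45. The guide made up 0.407% of that seed signal without the mimic and 77.7% with it. The relatives taken without the guide held 11097 units on the NT array and 11062 units on the miR-195 array.

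The relatives did not move together. miR-16, the sequence nearest to the guide, gave 5713 units on the NT array and 6387 on the miR-195 array, a scaled log2 difference of 0.25 (spot SD 0.13). Its 2 probes were 0.22 and 0.25 higher, and whether the mimic itself contributes signal on those probes was not tested. miR-15b, made from the same host gene as a copy of miR-16, gave 3937 and 3349 units (log2 -0.15, spot SD 0.08), and both of its probes were lower. miR-15a gave 1433 and 1280 units (log2 -0.08, spot SD 0.13). With their shifted seed, miR-103 gave 2796 and 2616 units (log2 -0.01, spot SD 0.12) and miR-107 2718 and 2654 units (log2 0.05, spot SD 0.12). The other 3 names of the list, miR-424, miR-503 and miR-646, stayed at background on both arrays. miR-497, the cluster partner of miR-195, was not well above background on the NT array at 11.8 units and was so on 1 of its 2 probes on the miR-195 array, where its sum was 45.4 units, at least 2.03 higher on the log2 scale. The 5 relatives above background on both arrays thus lay between -0.15 and 0.25, beside a median of -0.01 over all 147 endogenous miRNAs. miR-497, with a bound only, stood above that range, and whether the mimic contributes signal on its probes was not tested either.

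On the passenger side the closest name was miR-16-2*, which shares the passenger's seed and is 5 edits away. It gave 35.7 units on the NT array and 13.6 on the miR-195 array, where it was not well above background, so that its scaled log2 difference was at most -0.51. The next names, at 10 edits, were miR-106b*, which had no measurable difference, and miR-221 (log2 -0.35, spot SD 0.23), miR-200b (-0.04, 0.08), miR-23a (-0.11, 0.09) and miR-27b (-0.18, 0.13). Of the guide's neighbours outside its family, miR-148b stood at -0.07 (spot SD 0.11) and miR-29b at -0.26 (spot SD 0.14). Over 124 endogenous miRNAs with a sequence at hand, the number of edits to the guide and the log2 difference had a Spearman rho of 0.06, given as a description over miRNAs that share 2 arrays.

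The order of the endogenous miRNAs by signal was nearly the same with and without the mimic. Over the 147 miRNAs, Spearman's rho between the arrays was 0.984 and Pearson's r of log2 signals 0.987, again as descriptions across miRNAs of 1 pair of arrays. The 5 brightest names were the same 5 on both arrays, and the lists shared 9 of the 10 brightest, 19 of the 20 brightest, 49 of 50 and 96 of 100. The median endogenous miRNA differed by -0.01 on the scaled log2 scale with an SD of 0.37, and 119 of the 147 differed by less than 25%. In 43 the difference was more than 2 spot SDs. Of 101 miRNAs read by 2 or more detected probes, the probes lay on the same side of 0 in 79, with a median gap of 0.12 between the highest and lowest probe of a miRNA and a largest gap of 0.61.

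**Figure D3:**
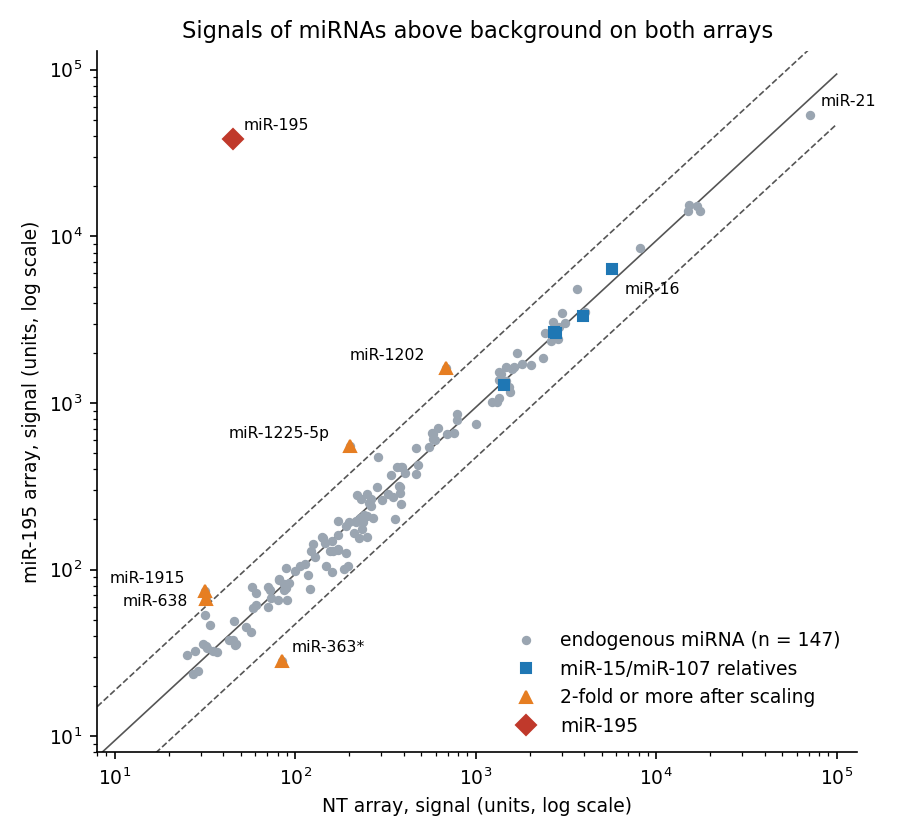
Summed signal of each miRNA above background on both arrays, NT on the x axis and miR-195 on the y axis, both logarithmic, with a solid line at equal scaled signal and dashed lines at 2-fold. The 147 endogenous miRNAs follow the solid line (Spearman rho 0.984), the miR-15/miR-107 relatives (blue squares) lie within the dashed lines, 5 miRNAs (orange triangles) lie outside them, and miR-195 stands 9.82 above the line on the log2 scale.

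At the top, miR-21 was first on both arrays, with 30.0% of endogenous signal without the mimic and 25.0% with it (scaled log2 -0.32, spot SD 0.13). Spots of its brighter probe did not overlap, at 45250 to 56426 units on the NT array and 37126 to 39489 on the miR-195 array. Those of its dimmer probe did, at 14896 to 24994 and 10633 to 18515 units. Separate spots were not particular to miR-21. The dimmer probe of miR-363 (7390 to 7753 and 5468 to 6215 units) and the brighter probe of miR-320d (2055 to 2186 and 2406 to 2545 units) had them too. The share of miR-21 on the miR-497 array was 38.2%, on the other side of the NT value. The next 4 names belong to the miR-17 clusters, polycistrons known to promote cell cycle entry. miR-363 moved from rank 2 to rank 5 (17457 and 14146 units, log2 -0.22, spot SD 0.08). miR-20b moved from rank 4 to rank 2 (15278 and 15530 units, 0.11, 0.10), miR-17 from rank 5 to rank 4 (14978 and 14192 units, 0.01, 0.15), and miR-19b stayed at rank 3 (16778 and 15177 units, -0.06, 0.16). In miR-17 and miR-19b the difference was within 1 spot SD, and in miR-20b just over it.

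miR-20a and miR-16 kept ranks 6 and 7. miR-22 gave 3659 units on the NT array and 4814 units on the miR-195 array and moved from rank 10 to rank 8, with the largest difference among the 20 brightest names of the NT array (log2 0.48, spot SD 0.09). Its 2 probes were 0.49 and 0.45 higher. miR-320d moved from rank 17 to rank 12 (2690 and 3078 units, 0.28, 0.04), the largest shift of place within that list, and miR-192 from rank 12 to rank 10 (3003 and 3478 units, 0.30, 0.21). The others stayed within 4 places, namely miR-92a (rank 8 to 9), miR-15b (9 to 11), miR-106b (11 to 13), miR-29a (13 to 14), miR-19a (14 to 18), miR-103 (15 to 17), miR-107 (16 to 15), miR-18b (18 to 19), miR-130b (19 to 16) and miR-29b (20 to 21). miR-34a, a p53-induced miRNA, took the place of miR-29b in the list with 1695 and 1995 units (log2 0.32, spot SD 0.06). The 10 brightest names held 67.8% of endogenous signal without the mimic and 65.0% with it, and 4 names and 5 names, respectively, were enough to reach 50%.

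Lower in the order the shifts were wider. Among the 100 brightest names of the NT array the median shift was 3 places, and 88 moved by 10 places or fewer. miR-1225-5p moved up most, from rank 84 to 48, followed by miR-1202 (42 to 26), miR-625 (80 to 65), miR-923_v12.0 (65 to 51) and miR-425 (91 to 79). The 5 largest moves down were those of miR-29b-1* (71 to 88), miR-374b (89 to 106), miR-7 (60 to 77), miR-92a-1* (86 to 103) and miR-374a (55 to 71). miR-374b gave 187 and 101 units (log2 -0.80, spot SD 0.14), and miR-7 gave 356 and 200 units (log2 -0.74, spot SD 0.18). Passenger strands, the names with an asterisk, were lower with the mimic in 11 of 16, with a median of -0.17, and the other names in 64 of 131, with a median of 0.01.

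Of the 147 endogenous miRNAs measured on both arrays, 5 differed by 2-fold or more. They were 4 higher, 2.72% of the 147, and 1 lower, 0.68%. With each array scaled by the 75th percentile of all its non-control probes, which put the median endogenous miRNA at -0.55 in place of -0.01, the counts were 1 higher, miR-1225-5p, and 9 lower. The sequences of the 5 are shown because the first 4 are rich in G and C.
miR-1225-5p: gUGGGUACggcccagugggggg
miR-1202: gUGCCAGCugcagugggggag
miR-1915: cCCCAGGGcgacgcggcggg
miR-638: aGGGAUCGcgggcggguggcggccu
miR-363*: cGGGUGGAucacgaugcaauuu
miR-1225-5p gave 201 units on the NT array and 550 on the miR-195 array (log2 1.54, spot SD 0.09), with both probes higher, at 1.39 and 1.75. miR-1202 gave 684 and 1615 units (1.33, 0.10), again with both probes higher. miR-1915 gave 31.7 and 74.3 units (1.32, 0.20) and miR-638 31.9 and 66.3 units (1.14, 0.23), and in each of these a single probe was well above background on both arrays. miR-363*, the passenger of the bright miR-363, gave 84.0 and 28.5 units (-1.48, 0.40), carried by 1 of its 4 probes. The 75th percentile used for scaling was 827 units on the NT array and 263 on the miR-497 array. On the miR-497 array the probes of miR-1225-5p gave 73.6 and 58.7 units, against 121 and 79.9 on NT. The probes of miR-1202 gave 251 and 212 units there, against 341 and 343. After scaling, both names were thus higher than NT on that array too. miR-1915, miR-638 and miR-363* were not well above background on it. None of the 5 shares the seed of either strand of the mimic, and each is at least 12 edits from the guide.

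The 4 higher miRNAs were 71.4% to 90.0% G and C, against a median of 45.5% over the 124 miRNAs with a sequence. Of 11 miRNAs above 60% GC, 7 were higher with the mimic, with a median log2 difference of 0.55 and a range from -0.19 to 1.54. These 11 include the 4 already picked for being 2-fold higher, so their count and median are no separate support. Of the 56 miRNAs between 45% and 60% GC, 28 were higher, with a median of 0.00. Of the 57 at or below 45%, 25 were higher, with a median of -0.03. The GC-rich names were also dimmer, with a median NT signal of 89.4 units against 242 and 356 units. Across the 124 miRNAs Spearman's rho between GC content and difference was 0.14, a weak relation given as a description. Without the names past 2-fold it was 0.06 over 119 miRNAs. The part of base composition or of low signal in these differences was not tested.

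**Figure D4:**
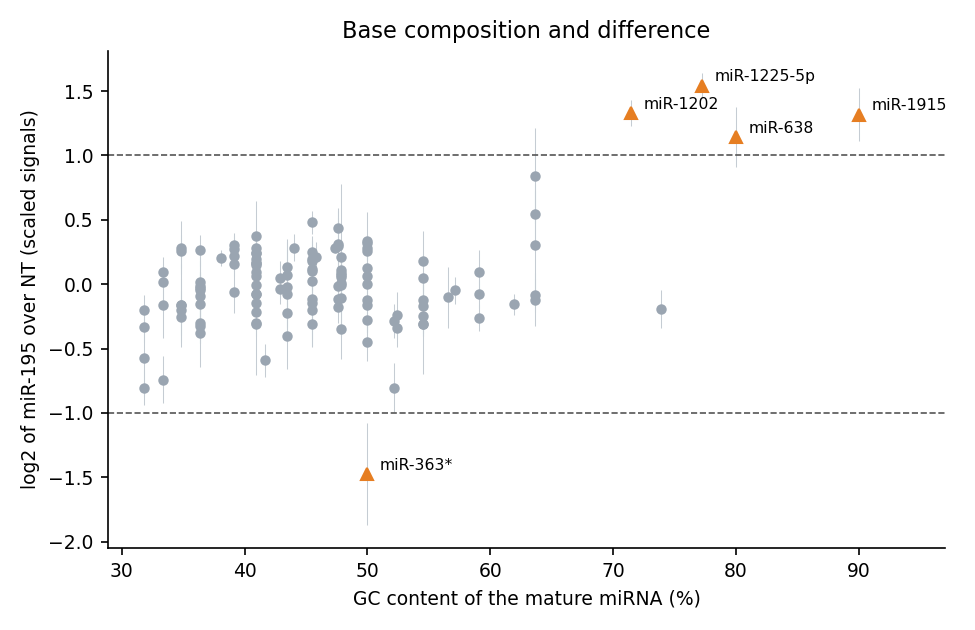
Scaled log2 difference of miR-195 over NT against the GC content of the mature miRNA, in percent, with vertical bars for the spot SD and dashed lines at 2-fold. The 4 miRNAs above the upper line (orange triangles) lie between 71.4% and 90.0% GC, miR-363* lies below the lower line at 50%, and most miRNAs under 60% GC lie close to 0.

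A further 23 endogenous miRNAs were well above background on 1 array, 20 on the NT array and 3 on the miR-195 array. The lowest detected signal was 11.1 units on the NT array and 23.7 on the miR-195 array, so the second array could follow dim miRNAs less far. The 3 seen with the mimic were GC-rich as well. miR-328 was at least 1.64 higher on the log2 scale (12.8 and 37.4 units), miR-940 at least 1.20 higher (16.0 and 34.5 units) and miR-296-5p at least 1.16 higher (15.5 and 32.5 units). Of the 20 seen without the mimic, 6 had a bound below 0. The lowest of them was miR-421 at most -0.58 (37.7 and 22.2 units), followed by miR-16-2*, given already, miR-186 at most -0.39, miR-199a-3p at most -0.38 and miR-548c-5p at most -0.26. None of these 6 upper bounds reached 2-fold, while the 3 lower bounds of the names seen with the mimic were past it.

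Summed over families, the cargo kept its make-up. The 22 families held 91.0% of endogenous signal on the NT array and 89.5% on the miR-195 array, the 10 families with the most signal were the same on both, and 12 of the 22 kept their place. None of the 21 families above background reached 2-fold, 11 were higher and 10 lower after scaling, and 7 differed by more than 2 spot SDs. A share of endogenous signal needs no scaling between arrays, so shares are given first. Scaling by another single factor moves all families alike, by as much as the median miRNA, so a side of 0 is best read against that median. Quantile normalization, which is no single factor, put the miR-15/miR-107 family and miR-21 on the other side of the median, at -0.20 and 0.05 from it in place of 0.07 and -0.32. Families within a few hundredths of the median also changed side with other ways of averaging spots or probes.

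The miR-17-92 cluster held 19.9% of endogenous signal without the mimic and 20.6% with it (scaled log2 -0.01, spot SD 0.08), and the related miR-106b-25 and miR-106a-363 clusters 17.3% and 17.5% (-0.05, 0.05). Their members lay between -0.28 and 0.15, and the highest was miR-20a. When miR-21 was left out of the total, the shares of these clusters were lower with the mimic, 28.4% and 27.5% for the first and 24.7% and 23.3% for the second, so the direction of a share depended on miR-21. The miR-15/miR-107 family without miR-195 and miR-497 held 6.97% and 7.59% (log2 0.06, spot SD 0.06), and 9.96% and 10.1% without miR-21.

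Some families had all members on 1 side of 0, a side that depends on the scaling. For comparison, 64 of 131 names without an asterisk and 11 of 16 with one were lower over all endogenous miRNAs. Scaled by all non-control probes, the sums of miR-320 and miR-484, miR-130/miR-301/miR-454 and miR-34 were at -0.27, -0.32 and -0.21, beside a median of -0.55. The 5 names of the miR-320 and miR-484 group, whose best-known members are made without Drosha, were all higher, between 0.16 and 0.30, and together went from 2.49% to 3.13% of endogenous signal (log2 0.27, spot SD 0.04). All 5 members of miR-130/miR-301/miR-454 were higher, between 0.19 and 0.31, led by miR-130b (1.39% and 1.69%; log2 0.22, spot SD 0.11). miR-34, represented by miR-34a, went from 0.712% to 0.931% (log2 0.32, spot SD 0.06). The miR-183/miR-96/miR-182 cluster had miR-183 and miR-96 above background, both higher (0.532% and 0.622%; log2 0.16, spot SD 0.07), but in the deposited table the cluster was at -0.32. In miR-23/miR-27/miR-24, led by miR-27b, 4 of 5 members were lower (2.93% and 2.75%; log2 -0.15, spot SD 0.05). The tRNA and rRNA fragment list, names since traced to such fragments, had the widest difference (0.112% and 0.216%; log2 0.89, spot SD 0.18), which rested on miR-923_v12.0 at 287 and 476 units (log2 0.81, spot SD 0.15). The list's difference was 0.24 with normexp background correction, below that of miR-34 at 0.27, and 0.06 in the deposited table.

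The remaining families lay close to 0 or were dim. let-7, led by let-7a at 1799 and 1718 units, held 1.92% and 1.97% (log2 -0.03, spot SD 0.07), with 3 of 7 members higher. miR-29 held 2.46% and 2.50%, miR-200, led by miR-200b, 0.964% and 0.995%, miR-26/miR-101, led by miR-26b, 0.850% and 0.906%, and miR-30, led by miR-30b, 0.411% and 0.451%. In each of these 4 the log2 difference was within 1 spot SD. Under 0.2% were miR-99/miR-100 and miR-125, led by miR-125a-5p (log2 -0.25, spot SD 0.15), miR-148/miR-152, led by miR-148b (0.00, 0.10), miR-191/miR-425, with miR-425 alone above background (0.26, 0.14), miR-378/miR-422a, with miR-378 alone (0.14, 0.42), and miR-221/miR-222, with miR-221 alone (-0.42, 0.33, but 0.37 in the deposited table). No member of the miR-181 family, miR-181c the brightest in it, was above background.

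**Figure D5:**
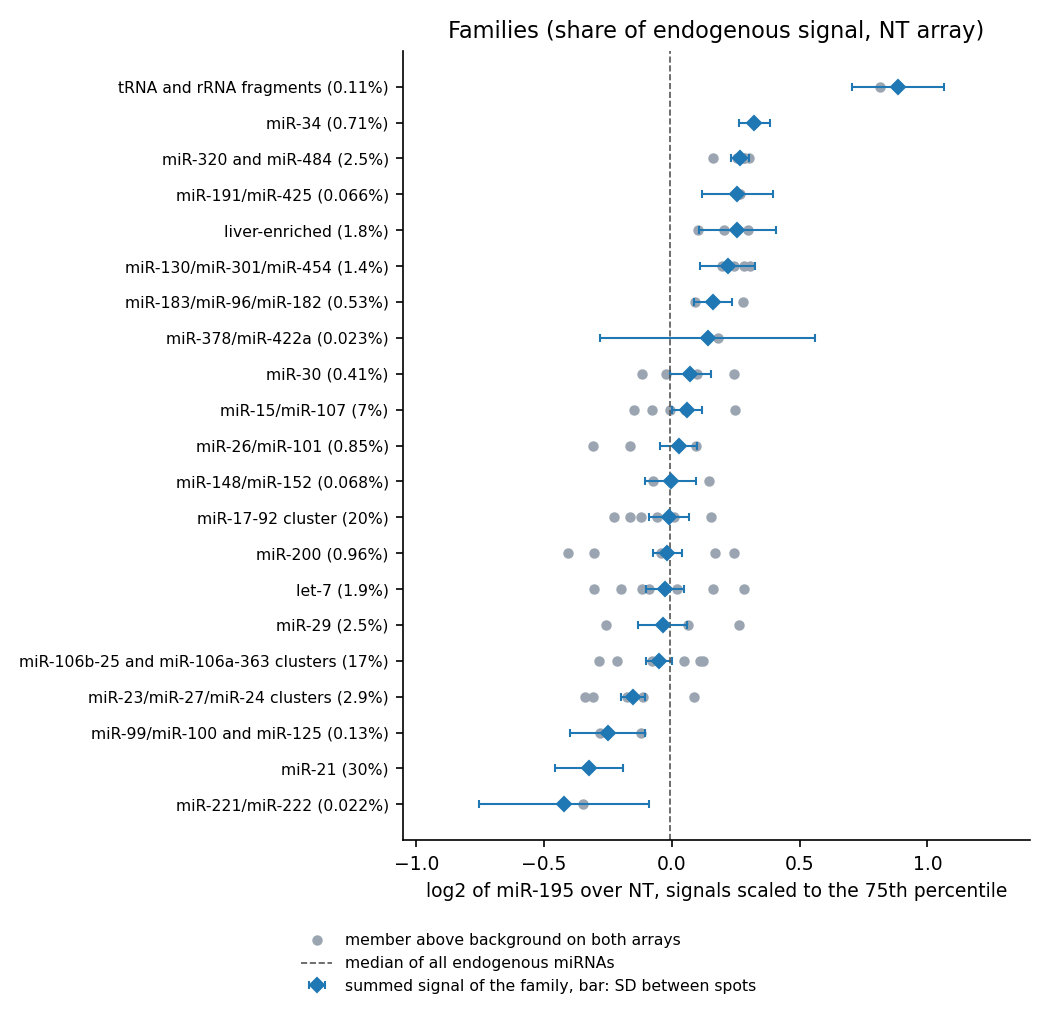
Scaled log2 difference of the summed signal of each family (blue diamonds, bars for the spot SD) and of its members above background on both arrays (grey points), ordered by difference, with each family's share of endogenous signal on the NT array in parentheses and a dashed line at the median of all 147 endogenous miRNAs. Above the line by more than their bars lie miR-15/miR-107, miR-183/miR-96/miR-182, miR-130/miR-301/miR-454, the liver-enriched names, miR-191/miR-425, miR-320 and miR-484, miR-34 and the fragment list, at 0.89. Below it by more than their bars lie miR-21, miR-23/miR-27/miR-24, miR-99/miR-100 and miR-125, and miR-221/miR-222.

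The label of the cells was set against markers. miR-192, miR-194 and miR-215, enriched in liver and gut epithelium, were above background on both arrays and all higher with the mimic, at 0.30, 0.10 and 0.20 on the log2 scale, and together held 1.85% and 2.30% of endogenous signal. Of all endogenous names without an asterisk, 64 of 131 were lower. miR-122, the defining miRNA of the hepatocyte, was not above background on either array, at 3.62 and -0.24 units. Of miRNAs that mark other cells, 3 of 8 blood names were above background and held 0.824% and 0.763% together, mostly miR-142-3p at 1521 and 1244 units, while miR-451 and miR-223 were not detected. None of 4 muscle names, 1 and 0 of 3 neural names and 1 and 0 of 5 stromal and endothelial names were above background on the NT and the miR-195 array. The part of these cell types in the differences was not tested.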

How the data were processed

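The authors labelled RNA from 3 Ago2 immunoprecipitates and scanned 1 single-colour Agilent array for each. The deposited scanner files give spot intensity on a linear scale, background-subtracted within the array by Agilent Feature Extraction 10.7.1.1 per the file headers, with no scaling between arrays. The authors also deposited a table of log2 values, thresholded at 1 and shifted to the 75th percentile in GeneSpring, which served as an alternative. The methods speak of repeated analysis of each sample, of which 1 array per group was used here.

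Groups came from sample titles. Intensities were averaged over spots without outlier flags for each probe and summed over the probes of a name with Python 3.11.15 and pandas 2.3.3. A probe was well above background when over 50% of its spots were flagged so, and a name when 1 probe was. Log2 differences used signals divided by the 75th percentile of the 183 probes well above background on all 3 arrays. Where 1 array lacked a name, its bound came from its own signal or the lowest detected one, whichever was brighter. The 3 arrays shared 1 slide and 1 scan, so no block could be fitted, and precision is limited by having 1 array per group. Totals of all human names formed the shares.

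The miRNAs named were the strands and the miR-15/107 list, the 20 brightest of either array, the brightest member of each family, names past 2-fold, the 5 largest bounds and the 5 largest shifts of rank each way among the 100 brightest, and the 5 nearest sequences. Members, lists and rules were chosen with earlier results of these data known. Alternatives covered background (normexp in limma 3.58.1, offset 50), spots, probes, scaling and detection. Code was tested on simulated spots. Sequences are from RefSeq (GRCh38.p14), matched through current names of the strands for 124 of the 147 miRNAs.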

Additional observations from a re-analysis of the deposited data

Results flagged for a closer look

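Signal outside the human names appeared in the deposited log2 table, where 2 viral miRNAs were listed above 0 on the miR-195 array and at 0 on the NT array. ebv-miR-BART17-3p was listed at 10.50 and hsv1-miR-H6-3p at 5.56. Their own probes gave 23.2 units each on the miR-195 array, and none of the 88 viral names was well above background on either array. The cause of the 2 listed values was not tested.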

How the results depend on the processing

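There were 15 alternative settings, and not each gave every value. Both strands were higher in each setting that gave their log2 difference. The endogenous total was computed again only with negative probe means set to 0 and with normexp. It was lower in each, at log2 -0.146 and -0.076. Across the settings, 57 of 85 values moved by no more than the spot SD, 0.02 for rho or, for counts, 1.5 times. With normexp (offset 50) the guide's share of signal was 9.37%, the passenger's 2.57% and the guide's share on the NT array 0.0442%, the log2 differences were 7.90 for the guide, 5.44 for the passenger and -0.076 for the endogenous total, and 2 endogenous miRNAs were 2-fold higher and 0 lower. With the brightest probe of each name the shares were 11.7% and 3.04% and the log2 differences 9.45 and 8.58. In the deposited table the shares were 12.2% and 1.64%, 0.0147% for the guide on the NT array, rho was 0.898 over 175 miRNAs, and 16 were 2-fold higher. Scaling by all non-control probes put the median endogenous miRNA at -0.55 and gave 9.28 and 9.41 for the strands, 1 miRNA higher and 9 lower. Over the brighter miRNAs, 74 in number, 2 were higher and 0 lower. The passenger's bound was 9.63 with spot medians, 9.86 unscaled, 10.01 by the endogenous total, 9.91 by that total without miR-21 (chosen after seeing the data) and 9.73 with quantile normalization. miR-638 was under 2-fold with all spots kept and with quantile normalization. Normexp as used added 50 units to every spot, those at background included, which makes log2 differences of dim signals smaller. Those 50 units also entered the totals through each of the 2370 human probes. This lowers the share of a bright name, raises that of a dim one and shrinks the log2 difference of the endogenous total. How much of each normexp change came from this, and the cause of the changes in the deposited table, were not tested. No paired analysis was possible because each group had 1 array. Dim miRNAs near background, such as miR-1915, miR-638 and miR-363*, limit what these arrays can show.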
